A study of Mus musculus with 6 samples.

Results

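Retinoic acid pathway genes were followed in cultured mouse bone marrow progenitors that carried either wild type MLLT3 or its K63E K67E mutant. The set held 9 genes of 55487 in the table, taken by symbol: Cyp26b1, Cyp26a1, Aldh1a2, Dhrs3, Stra6, Rara, Rarg, Rxra and Rxrb. The set was proposed with results of the present comparison known. Cyp26b1 ranked at 3 of 18766 genes when signed differences, mutant minus wild type, were ordered from the highest down. The differences of these 9 genes are therefore given as a description with no test of their own.

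Retinol is taken up from the blood by the membrane receptor STRA6, oxidised to retinaldehyde and then to retinoic acid by ALDH1A enzymes, and retinoic acid is broken down by CYP26 enzymes. Retinoic acid binds the receptors RAR, which sit on DNA as dimers with RXR and switch from holding a target gene down to activating it. In bone marrow the pathway is known for its effects on granulocyte maturation, where RARA has a central part, and on the self-renewal of stem cells, where RARG and CYP26B1 have been studied.

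Total RNA was sequenced from 6 libraries of cultured bone marrow cells, described as positive for Kit, a receptor of stem and progenitor cells. In 3 libraries (WT) a lentivirus overexpressed wild type MLLT3, and in 3 (DM) it overexpressed the K63E and K67E form. MLLT3 is a chromatin reader of elongation complexes, and the series title places the study on its YEATS domain. Cells of both groups were sorted and grown for 8 days in methylcellulose with haematopoietic cytokines, SCF, GM-CSF, IL-3 and IL-6 among them, and with 4-hydroxytamoxifen at 200 nM to delete the endogenous Mllt3 gene. The mouse strain, age, sex and Cre allele are not given in the sources used here. Nothing says whether the libraries came from separate mice or cultures, so p-values measure the spread between these libraries. All 6 libraries are in batch 1 per the labels.

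Values are regularized log (rlog) values, on a log2 scale, normalized for library size and pulled toward each gene's mean where reads are few. Depth is unknown, and the differences of low genes are understated. Tests covered 18766 genes that averaged at least 3, and the library medians over these lay between 8.03 and 8.11. Mllt3, targeted for deletion and supplied by the vector, had values of 12.87, 12.60 and 12.44 in WT, against 12.44, 12.03 and 11.99 in DM, a difference of -0.48 (SE 0.137, limma adjusted p 0.0448). These values do not separate the endogenous gene from the vector. Kit ran from 14.29 to 14.58 in WT and from 14.30 to 14.90 in DM. Genes of mature cells were high as well. The mast cell marker Cpa3 had means of 17.74 in WT and 17.98 in DM, and the neutrophil marker S100a9 17.09 and 15.82. The level of Kit therefore does not show that the cultured cells were still progenitors.

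The promoters of the CYP26 genes are shown first because Cyp26b1 had the largest difference of the 9 genes and Cyp26a1 belongs to the same family. A difference in response between these genes is not shown, since Cyp26a1 lay near the lower limit of testing. Direct repeats of the receptor-binding hexamer were searched on both strands in RefSeq promoter windows (build GRCm38.p6), which run from 250 bases before to 50 bases after a start site. The copies were any of the hexamers AGGTCA or AGTTCA or GGTTCA or GGGTCA, with 1, 2 or 5 bases between them. All 9 genes matched, with 20 windows, of which 1 held a direct repeat. That window was the one of Cyp26a1, with a spacing of 5 bases, which 0.0974% of all 32851 windows hold. Spacings of 1 and 2 bases occur in 0.222% and 0.268% of all windows and in none of the 20. At least 1 hexamer was found in 6 of the 20 windows, that of Cyp26a1 included, beside 43.7% of all windows. The sequences below are read 5′ to 3′ on the strand of the gene, end before the first exon of GENCODE M21, and carry the repeated hexamers in capitals.
Cyp26a1 promoter (chr19:37697558-37697797, plus strand): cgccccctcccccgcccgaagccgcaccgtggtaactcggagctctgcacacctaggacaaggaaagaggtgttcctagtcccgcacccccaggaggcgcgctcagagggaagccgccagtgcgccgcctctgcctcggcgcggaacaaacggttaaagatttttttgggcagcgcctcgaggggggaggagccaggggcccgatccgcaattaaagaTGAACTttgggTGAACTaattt
Cyp26b1 promoter (chr6:84593909-84594060, minus strand): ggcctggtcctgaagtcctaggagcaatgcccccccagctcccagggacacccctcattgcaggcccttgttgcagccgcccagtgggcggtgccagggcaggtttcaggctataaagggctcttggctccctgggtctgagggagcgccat

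The repeat of Cyp26a1 lies on the strand opposite the gene, at chr19:37697776-37697792. Among the 66 other pathway genes listed for comparison, 48 matched a promoter, with 61 windows, and 2 of these windows held a direct repeat. Rarb, the receptor gene known for its own retinoic acid response element, had a repeat with the same spacing at chr14:16575513-16575529 on the minus strand, the strand of the gene. Bco1, which cleaves beta-carotene, had a repeat with a spacing of 1 base at chr8:117095809-117095821 on the minus strand, opposite the gene. The elements are set side by side with their hexamers in capitals, each read 5′ to 3′ on the strand that holds the hexamers as listed.
Cyp26a1 element: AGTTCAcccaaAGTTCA
Rarb element: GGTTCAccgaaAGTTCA
Bco1 element: AGGTCAaAGGTCA
These matches describe letters in a window, not bound sites. The window of Cyp26b1 held none of the hexamers.

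Among the 9 genes, the differences of Cyp26b1 (1.13), Rxra (0.60) and Dhrs3 (0.43) were the largest in size, all with DM above WT. A call is an adjusted p under 0.05 from limma, a linear model fitted over all 18766 genes with Benjamini-Hochberg adjustment. These 3 genes fell under that threshold, beside 13.9% of all genes tested, or 9.2% for calls higher in DM and 4.71% for calls lower. Nothing is read from this count, because the comparison took part in choosing the set. The count was 2, without Dhrs3, when WT replicate 1, WT replicate 3, DM replicate 2 or DM replicate 3 was left out. It was also 2, without Dhrs3, with no filter on the mean, after quantile normalization and after centring each library on its median. Dhrs3 thus lost its call in 7 of 13 alternative analyses. The count was 4 without WT replicate 2 (with Stra6) or without DM replicate 1 (with Rara). Mean values were higher in DM for 5 members and lower for 4, with a median difference of 0.04, beside 0.005 over all genes tested. The groups did not overlap for 4 members, 3 with DM above WT and 1 with DM below. Over all genes tested the groups did not overlap for 35.8%, with DM above WT for 21.5% and DM below for 14.3%. All 9 members had a mean of at least 3.

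**Figure D1:**
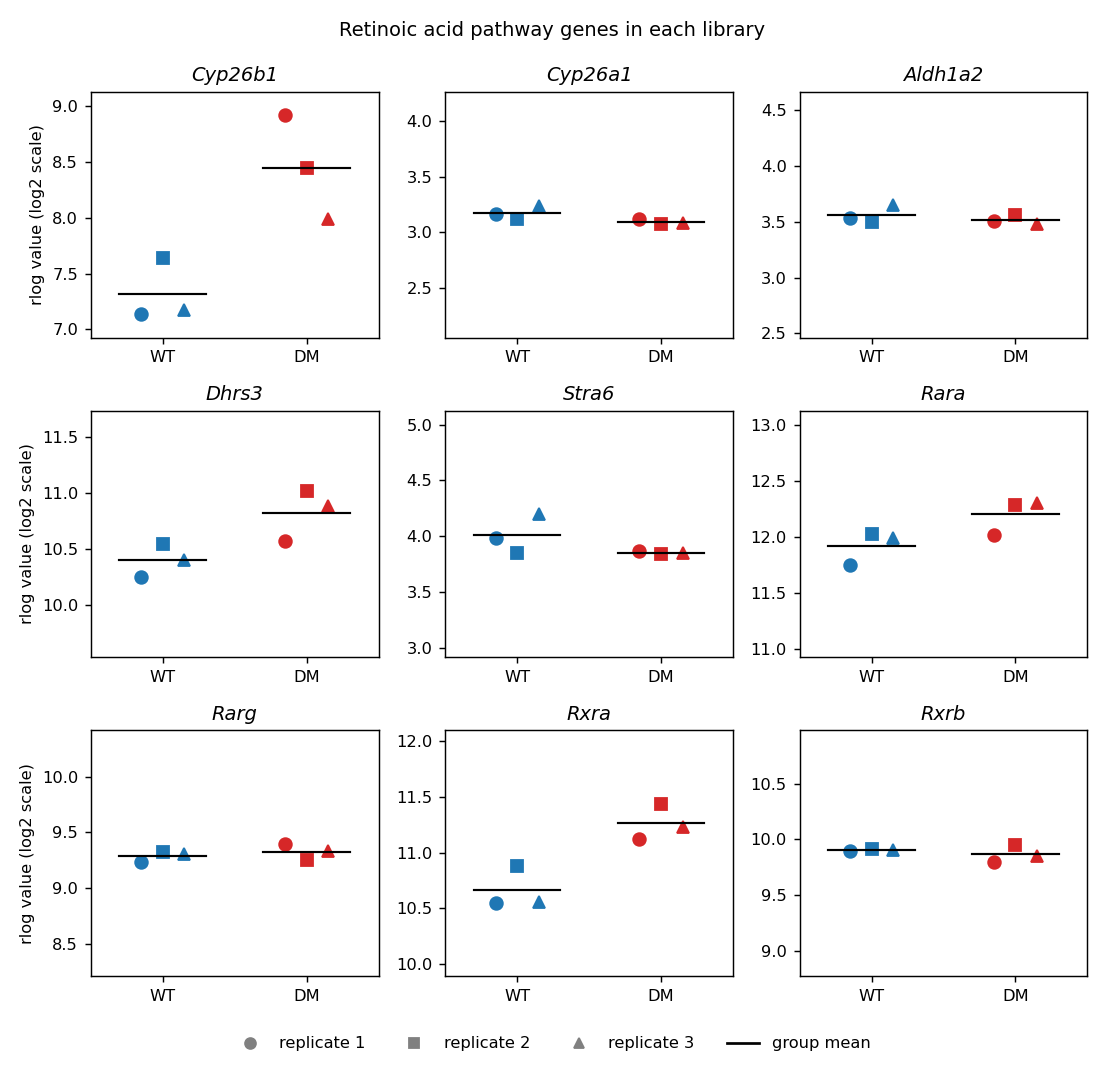
Deposited rlog values (log2 scale) of the 9 members in each library, with WT in blue, DM in red, symbols for replicates and a line at each group mean; every panel spans the same range of values. The DM libraries lie above the WT libraries for Cyp26b1, Dhrs3 and Rxra, while Cyp26a1, Aldh1a2 and Stra6 stay between 3.08 and 4.20.

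Cyp26b1 encodes an enzyme that oxidises and so inactivates retinoic acid. The gene (ENSMUSG00000063415.12) lies at chr6:84571414-84593908 on the minus strand, with coordinates from GENCODE M21 on GRCm38, the build called mm10 in the submitters' processing notes. Its rlog values were 7.14, 7.64 and 7.17 in WT, against 8.91, 8.44 and 7.98 in DM, in the order of the replicate numbers used throughout. Every DM library was above every WT library, DM replicate 1 was the highest, and the gap between the groups lay between DM replicate 3 and WT replicate 2. The mean went from 7.32 ± 0.281 (SD, n = 3) in WT to 8.45 ± 0.465 (SD, n = 3) in DM, a difference of 1.13 (SE 0.21), or 2.19-fold. In 13 alternative analyses of the same libraries the difference ran from 0.90 to 1.36. This was the widest range over the libraries in the set, 1.77 on the log2 scale.

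Cyp26a1, the paralog with the same reaction and a direct retinoic acid target by textbook knowledge, stayed near the lower limit of testing. Its values were 3.17, 3.12 and 3.24 in WT, against 3.12, 3.08 and 3.08 in DM. The highest DM value lay just under the lowest WT value, and the difference was -0.08 (SE 0.0416). Cyp26a1 (ENSMUSG00000024987.6) lies at chr19:37697798-37701536. Within a library, the rlog value of Cyp26b1 exceeded that of Cyp26a1 by 4.14 ± 0.33 in WT and 5.35 ± 0.447 in DM (SD, n = 3 each), without correction for length. Cyp26c1, the remaining member of the family, ran from 4.20 to 4.33 in WT and from 4.04 to 4.15 in DM, a difference of -0.15 (95% interval from -0.27 to -0.02, limma adjusted p 0.109).

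Aldh1a2 and Stra6, which act in the making of retinoic acid and in the uptake of retinol, had low values. Aldh1a2 (ENSMUSG00000013584.5; chr9:71215789-71296243), which oxidises retinaldehyde to retinoic acid, had values of 3.53, 3.49 and 3.65 in WT, against 3.50, 3.56 and 3.48 in DM. The groups overlapped, and the difference was -0.04 (SE 0.0499), which became 0.02 after quantile normalization. Stra6 (ENSMUSG00000032327.14; chr9:58063788-58153996), the retinol uptake receptor, had values of 3.98, 3.85 and 4.20 in WT, against 3.86, 3.84 and 3.85 in DM. The DM libraries lay close together at the low end of WT, with WT replicate 3 the highest, and the difference was -0.16 (SE 0.0762). It ran from -0.24 without WT replicate 2 to -0.07 without WT replicate 3. Since rlog values this low are pulled together, the differences of Cyp26a1, Aldh1a2 and Stra6 are understated, and absence of a change is not shown.

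Dhrs3 encodes a reductase that turns retinaldehyde back into retinol and so works against the making of retinoic acid. Its values (ENSMUSG00000066026.14; chr4:144892827-144928209) were 10.24, 10.54 and 10.40 in WT, against 10.57, 11.02 and 10.88 in DM. The groups did not overlap, but DM replicate 1 lay only just above WT replicate 2. The mean went from 10.40 ± 0.148 to 10.82 ± 0.231 (SD, n = 3 each), a difference of 0.43 (SE 0.117), or 1.34-fold. Over the 13 alternatives it ran from 0.33, without DM replicate 2 or after quantile normalization, to 0.55 without DM replicate 1.

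**Figure D2:**
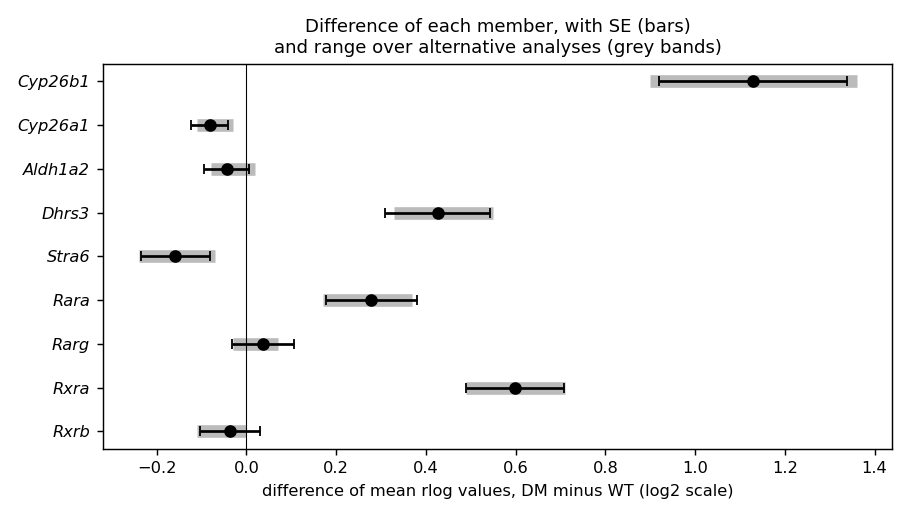
Difference of mean rlog values, DM minus WT (log2 scale), for each member, with points at the value from all 6 libraries, black bars for the SE and grey bands for the range over the alternative analyses. Cyp26b1, Rxra, Dhrs3 and Rara keep positive differences throughout, while the bands of Aldh1a2 and Rarg cross 0.

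The receptors were present at unequal levels. Per length, as rlog value minus the log2 of exon length in kb, the order of means over the 6 libraries was Rara at 9.93, Rxra at 8.51, Rxrb at 7.89, Rarg at 7.22, Rxrg at 1.60 and Rarb at 0.64. The ranges over libraries of neighbours in this order did not overlap. The closest neighbours were Rxra, with a lowest value of 8.10, and Rxrb, with a highest value of 7.96. Rxrg and Rarb, from the wider list, stood far below the others. Rarb differed by -0.04 (95% interval from -0.14 to 0.06, limma adjusted p 0.578), which became 0.01 after quantile normalization, and its exons overlap those of Top2b on the opposite strand. Exon length is the union over annotated transcripts, which may not be the transcripts these cells make.

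Rxra was the RXR gene with the higher level. Its rlog values (ENSMUSG00000015846.15) were 10.55, 10.88 and 10.56 in WT, against 11.12, 11.44 and 11.23 in DM. Each DM library exceeded each WT library, and replicate 2 was the highest of its group in both. The mean went from 10.66 ± 0.189 to 11.26 ± 0.161 (SD, n = 3 each), a difference of 0.60 (SE 0.109), or 1.51-fold, with a range of 0.49 to 0.71 over the 13 alternatives. GENCODE M21 lists the gene, under another version of its identifier, at chr2:27676440-27762957.

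Rxrb (ENSMUSG00000039656.17; chr17:34031812-34038399), the RXR gene next in level, had values of 9.90, 9.91 and 9.90 in WT, against 9.80, 9.95 and 9.85 in DM. The DM libraries fell on both sides of the WT libraries, and the difference was -0.04 (SE 0.0666, 95% interval from -0.18 to 0.11). The rlog value of Rxra relative to Rxrb in the same library was 0.65, 0.97 and 0.66 in WT, against 1.32, 1.48 and 1.38 in DM. This ratio of the 2 receptor genes was higher in all 3 DM libraries, by 0.63 on the log2 scale.

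Rara (ENSMUSG00000037992.16; chr11:98927818-98974942), the RAR gene with the highest level of the 6 receptors, had values of 11.75, 12.02 and 11.99 in WT, against 12.02, 12.28 and 12.30 in DM. DM replicate 1 lay between the WT values, so the groups overlapped. The difference was 0.28 (SE 0.102), with a range of 0.17 after quantile normalization to 0.37 without DM replicate 1. Rarg (ENSMUSG00000001288.15; chr15:102234938-102257517), which is studied for its part in stem cell self-renewal, had values of 9.23, 9.33 and 9.31 in WT, against 9.39, 9.25 and 9.34 in DM. The groups overlapped, and the difference of Rarg was 0.04 (SE 0.0685, 95% interval from -0.12 to 0.19), which turned to -0.03 after quantile normalization.

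**Figure D3:**
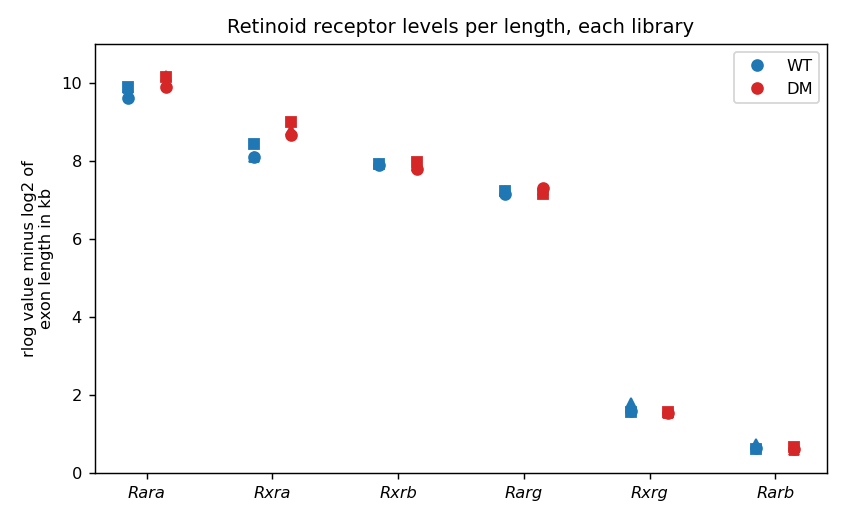
Level per length of the retinoid receptor genes, as rlog value minus log2 of exon length in kb, with 1 point per library (WT blue, DM red). Rara stands highest and Rxra next, and Rxrg and Rarb lie below 2.

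The other pathway genes came from a list of 66 drawn up by textbook roles but with earlier results of these data known, of which 55 had a mean of at least 3. With limma and Benjamini-Hochberg adjustment, 13 of these 55 were called, 11 higher and 2 lower in DM, or 23.6% beside 13.9% of all genes tested. Because of how the list was drawn up, nothing particular to it is read from this share, or from the shares by role below. The median difference of the list was 0.06, beside 0.005 over all genes tested. The count fell to 8 without WT replicate 1, to 7 without DM replicate 2 and to 8 without DM replicate 3, and to 8 without the filter on the mean. After quantile normalization 12 were called, 8 higher and 4 lower. Over all genes, 66.1% of calls were higher in DM, and 51.3% after quantile normalization.

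In retinol uptake and storage, 1 of 6 tested genes was called, or 16.7% beside 13.9% of all genes tested. Stra6l encodes a second membrane receptor for the retinol carrier RBP4 and is related to Stra6. Its values were 8.01, 8.24 and 7.79 in WT, against 8.51, 8.84 and 8.61 in DM, with no overlap. The difference of Stra6l was 0.64 (SE 0.121, limma adjusted p 0.00962), and its call was kept in all 13 alternatives. Stra6 stood at a lower level per length (1.39) and differed by -0.16 (95% interval from -0.33 to 0.01). Since differences of low genes are understated, a difference in response between Stra6l and Stra6 is not shown. Dgat1, which can esterify retinol and mainly makes triglycerides, had the highest mean rlog value of the uncalled genes in the group, though not per length, and differed by -0.38 (95% interval from -0.71 to -0.05, limma adjusted p 0.127).

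In the oxidation and reduction of retinol and retinaldehyde, 3 of 12 genes were called, 2 higher and 1 lower. The share was 25.0%, beside 13.9% of all genes tested. Rdh12, a retinaldehyde reductase best known from photoreceptors, had values of 7.73, 7.85 and 7.92 in WT, against 7.00, 7.17 and 7.30 in DM. The groups were well apart, with a difference of -0.68 (SE 0.0909, limma adjusted p 0.00259) and a call in all 13 alternatives. Dhrs9, a retinol dehydrogenase found in macrophages, differed by 0.47 (SE 0.13, limma adjusted p 0.0384), and Rdh13, a mitochondrial reductase, by 0.34 (SE 0.0931, limma adjusted p 0.0404). Dhrs9 and Rdh13 each lost the call in 5 of 13 alternatives, namely without the filter on the mean and without WT replicate 1, WT replicate 3, DM replicate 2 or DM replicate 3. Rdh11 had the highest mean rlog value of the uncalled genes and differed by -0.01 (95% interval from -0.18 to 0.17). The other retinaldehyde dehydrogenases were not called either, with Aldh1a1 at 0.14 and Aldh1a3 at -0.10.

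Among genes that bind or break down retinoic acid, 1 of 3 tested was called, or 33.3% beside 13.9% of all genes tested. Fabp5, a fatty acid binding protein that can also carry retinoic acid to the nuclear receptor PPARD, had values of 12.90, 13.22 and 12.37 in WT, against 13.60, 14.16 and 13.57 in DM. Its DM libraries all exceeded the WT libraries, by 0.95 on average (SE 0.21, limma adjusted p 0.0163). The call of Fabp5 was lost without DM replicate 2 (0.76). Crabp1 and Crabp2, the dedicated carriers of retinoic acid, had means under 3 and were not tested, with Crabp2 at 2.68 in WT and 2.66 in DM. Cyp2s1 had the highest mean rlog value of the uncalled genes of the group, though not per length, and differed by -0.07 (95% interval from -0.25 to 0.10).

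Of the nuclear receptors that pair with RXR, 2 of 10 tested were called, both higher in DM. The share was 20.0%, beside 13.9% of all genes tested. Nr1h3, which encodes the oxysterol receptor LXR alpha, had values of 8.57, 8.84 and 8.32 in WT, against 9.20, 9.52 and 9.11 in DM. The difference of Nr1h3 was 0.70 (SE 0.139, limma adjusted p 0.0108), with a call in all 13 alternatives. Exons of Nr1h3 are shared with the annotated transcript Gm13783 on the same strand, so reads may be split between them. Ppard, the fatty acid receptor to which FABP5 delivers ligands, differed by 0.27 (SE 0.0714, limma adjusted p 0.0317) and lost the call in 7 of 13 alternatives, among them quantile normalization (0.17) and each of WT replicates 1 and 3 and DM replicates 1 to 3 left out. Nr1h2, the gene of LXR beta, had the highest mean rlog value of the uncalled partners and differed by 0.13 (95% interval from -0.01 to 0.27).

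Of the 15 receptor coregulators, 2 were called, both higher, or 13.3% beside 13.9% of all genes tested. Nrip1, a corepressor that is itself a known retinoic acid target, went from 9.91 ± 0.0527 to 10.33 ± 0.0956 (SD, n = 3 each), a difference of 0.42 (SE 0.0719, limma adjusted p 0.00688), and was called in all 13 alternatives. Ncoa1, a coactivator, differed by 0.47 (SE 0.123, limma adjusted p 0.0333). Its call was lost in 6 of 13 alternatives, among them quantile normalization (0.37), WT replicate 1 left out (0.35), WT replicate 3 (0.44), DM replicate 2 (0.40) and DM replicate 3 (0.45). The corepressor Ncor1 had the highest mean rlog value of the uncalled genes and differed by -0.05 (95% interval from -0.22 to 0.11). After quantile normalization Ncor1 differed by -0.23 and was called lower.

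Of 8 tested textbook targets of retinoic acid, 3 were called higher and 1 lower, or 50.0% beside 13.9% of all genes tested. Cebpe, a factor of late granulocyte maturation, had values of 10.47, 10.64 and 10.60 in WT, against 8.51, 8.80 and 9.17 in DM. Its difference was -1.74 (SE 0.139, limma adjusted p 0.000157), the largest in size on the wider list. Tgm2, which encodes tissue transglutaminase and is also a macrophage gene, went from 10.18 ± 0.28 to 10.88 ± 0.144 (SD, n = 3 each), a difference of 0.70 (SE 0.13, limma adjusted p 0.00921). Icam1, an adhesion molecule, had values of 11.05, 11.37 and 11.06 in WT, against 11.94, 11.87 and 11.76 in DM, a difference of 0.70 (SE 0.0972, limma adjusted p 0.00308). Cebpe, Tgm2 and Icam1 kept their calls in all 13 alternatives. Bhlhe40, a transcription repressor, differed by 0.28 (SE 0.0807, limma adjusted p 0.0436) and lost its call in 7 of 13, among them quantile normalization (0.10) and each of WT replicates 1 and 3 and DM replicates 1 to 3 left out. Cd38 had the highest mean rlog value of the uncalled targets, differed by 0.38 (limma adjusted p 0.102) and was called without WT replicate 2 (0.53). Genes annotated on the opposite strand overlap exons of Tgm2, Icam1, Bhlhe40, Ncoa1, Ncor1 and Cyp2s1. Whether reads were counted by strand is not given in the sources used here, so reads from these pairs may be mixed.

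**Figure D4:**
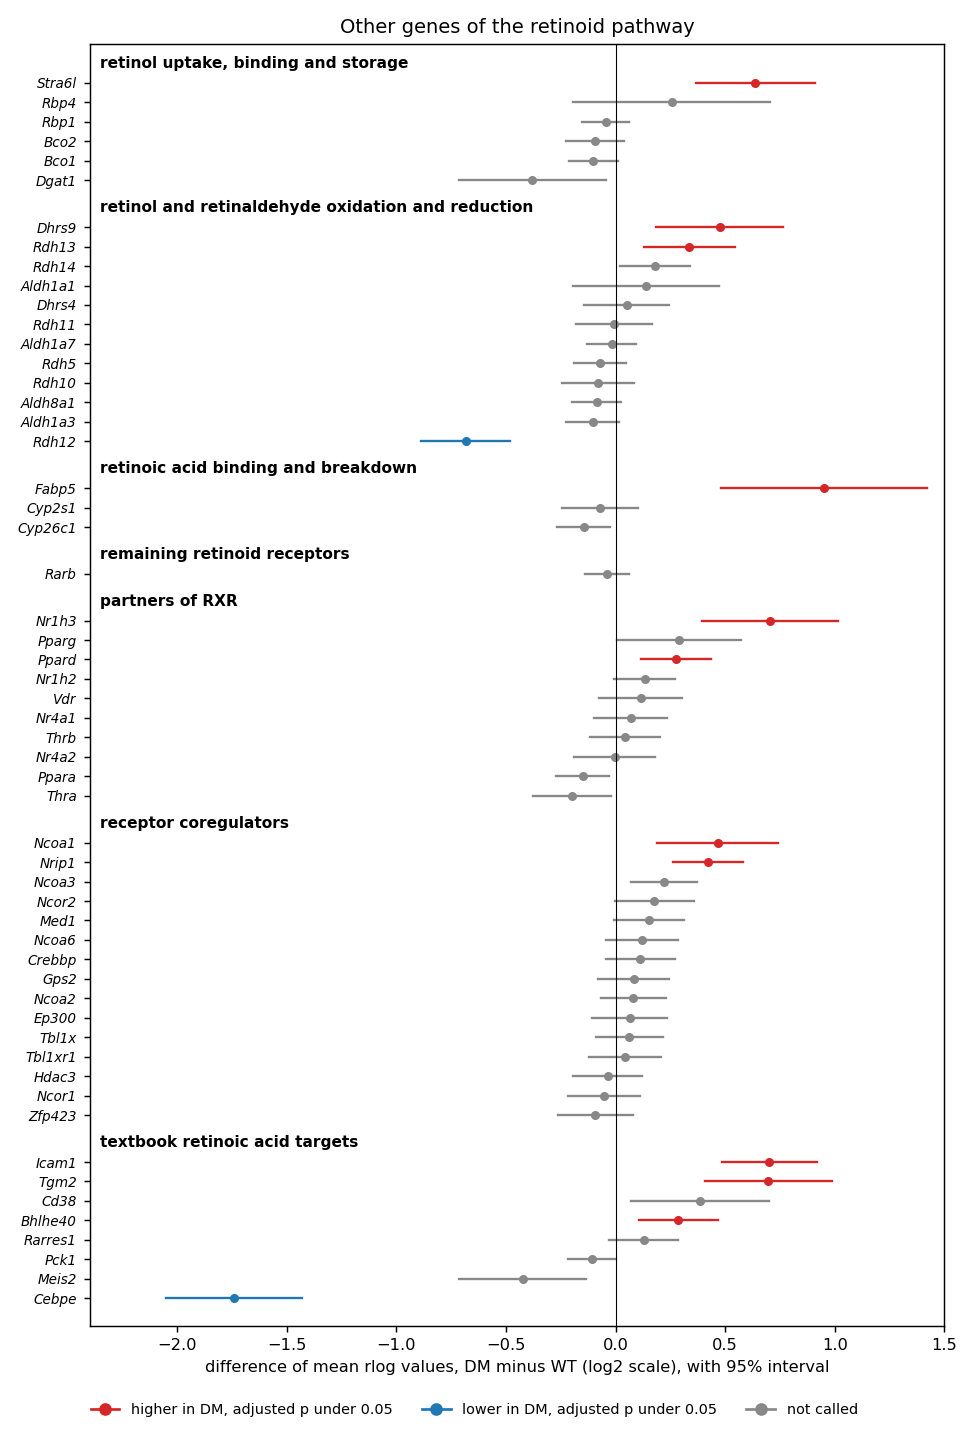
Difference of mean rlog values, DM minus WT (log2 scale), with 95% intervals from limma, for the 55 tested genes of the wider list grouped by role; red and blue mark adjusted p under 0.05, higher and lower in DM. Calls are spread over several roles, and Cebpe at -1.74 and Fabp5 at 0.95 are the extremes.

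The differences ran alongside differences in markers of myeloid cell types. In bulk RNA, a change in the share of a cell type and a change of RNA per cell cannot be told apart. Of 10 monocyte and macrophage markers, 9 were tested and 8 were called higher in DM. The log2 of the summed linear level of the list ran from 16.71 to 17.47 in WT and from 17.86 to 18.13 in DM. Gpnmb weighs most in this sum, with means of 16.22 in WT and 17.17 in DM. The median difference of the 9 tested markers was 0.735. C1qa and C1qb, which mark resident macrophages, were the lowest of the list, with C1qa at 2.54 in WT and 2.47 in DM. All 10 neutrophil markers were called lower, with a summed level of 18.45 to 18.89 in WT and 16.83 to 17.74 in DM.

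Within the WT group, replicate 2 had the highest value for 8 of the 9 tested macrophage markers. It was also the highest WT library for 6 of the 9 retinoic acid pathway members, Cyp26b1, Rxra and Dhrs3 among them, and for 44.1% of all genes tested. Within DM, replicate 2 was the highest for 7 of the 9 macrophage markers, as it was for Rxra and Dhrs3, whereas Cyp26b1 was highest in DM replicate 1. Of the 9 members, 4 were highest in DM replicate 2 and 4 in DM replicate 1, beside 38.9% and 31.8% of all genes tested. The part of cell composition in the differences of Cyp26b1, Rxra, Dhrs3, Nr1h3, Fabp5, Tgm2 and Cebpe was not tested.

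Other sources were checked with further marker lists. Of 7 tested stromal markers, Pdpn was called higher (1.01, limma adjusted p 0.00832), and Col1a1 (-0.37, limma adjusted p 0.043) and Pdgfrb (-0.36, limma adjusted p 0.00997) lower. The summed stromal level ran from 10.95 to 11.72 in WT and from 12.13 to 12.45 in DM, with Pdpn, also a gene of activated macrophages, far above the other stromal genes. Dcn and Lum were the lowest of the stromal list, at 0.51 and 0.84 in WT and 0.50 and 0.83 in DM. Pdgfrb, Col1a1, Pdgfra, Lepr and Col1a2 stood higher, with WT means of 6.12, 6.09, 5.35, 4.96 and 4.33. With limma, 0 of 4 tested endothelial markers were called (1 at an unadjusted p under 0.05), with a summed level of 7.59 to 7.91 in WT and 7.64 to 7.87 in DM. Of the megakaryocyte and erythroid markers 0 of 5 tested were called (0 at an unadjusted p under 0.05), with a summed level of 13.30 to 13.63 in WT and 13.50 to 13.95 in DM. Hba-a1, an adult globin gene of that list, lay at about the lowest value of the table (-1.97) in every library. Hbb-bs and Klf1 of the same list lay higher, from 5.69 to 6.54 and from 5.84 to 6.80 over the 6 libraries. Of 6 mast cell markers 1 was called lower, Hdc (-0.62, limma adjusted p 0.0457), and the summed level was 18.76 to 19.16 in WT and 18.80 to 19.28 in DM. Of 4 tested dendritic cell markers, Itgax was called higher (0.98, limma adjusted p 0.0108) and Flt3 lower (-0.30, limma adjusted p 0.0494). The summed dendritic level was 11.73 to 12.62 in WT and 12.93 to 13.20 in DM. This sum follows Itgax, with means of 12.05 in WT and 13.04 in DM. Ccr7, the next in level, had means of 6.72 and 7.04, Zbtb46 differed by -0.07, and Siglech and Xcr1 had means under 3.

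**Figure D5:**
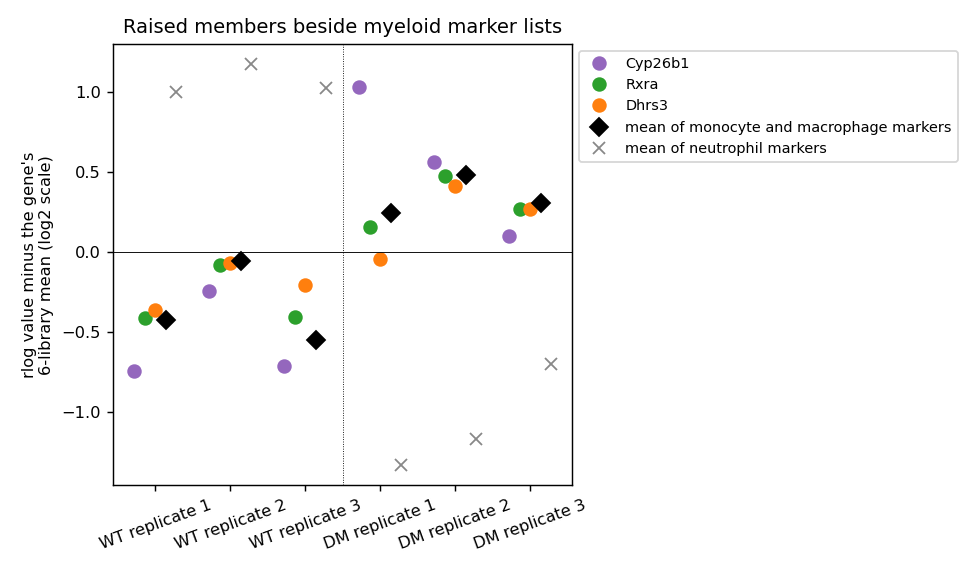
Values of Cyp26b1, Rxra and Dhrs3 in each library, centred on each gene's 6-library mean (log2 scale), beside the mean of the tested monocyte and macrophage markers and of the neutrophil markers, centred in the same way. The 3 genes and the macrophage markers are lower in the WT libraries, where replicate 2 is nearest to 0, and the neutrophil markers run the other way.

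The 5 genes with the profile nearest to Cyp26b1 were Plet1, Cd200, Met, Mmp14 and Clmp. Nearness was the Euclidean distance between values centred on each gene's mean over the 6 libraries, and it ran from 0.486 for Plet1 to 0.581 for Clmp. Their Pearson correlation with Cyp26b1 over the 6 libraries, which share the division into WT and DM, was 0.952 for Plet1, 0.966 for Cd200, 0.947 for Met, 0.953 for Mmp14 and 0.933 for Clmp. Plet1 is a surface protein, Cd200 an immunoglobulin-family ligand, Met the receptor of hepatocyte growth factor, Mmp14 a membrane-bound matrix protease and Clmp a cell adhesion molecule. Values of Mmp14 were 9.28, 9.81 and 9.24 in WT, against 10.60, 10.44 and 10.35 in DM. Each of the 5 genes, chosen for likeness, had WT replicate 2 as the highest WT library and DM replicate 1 as the highest DM library, as Cyp26b1 had.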

How the data were processed

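The deposited table held rlog values on the log2 scale, made by the authors and read as such from the table's name and its values (-1.97 to 21.88, not whole). Per the submitters' processing notes, cutadapt 2.6, STAR 2.7.3, DESeq2 1.30.0 and build mm10 were used, with no roles given. The counting tool, annotation and use of strand are not given in the sources used here. Its 142699 lines, repeats with identical values, were merged into 55487 genes. Of these, 54349 matched GENCODE M21 (GRCm38) by versioned identifier and 55141 (99.4%) without the version.

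Differences were computed with limma 3.58.1 (lmFit, eBayes with trend) in R 4.3.3 on values as deposited, for 18766 genes with a mean of at least 3, without covariates, with Benjamini-Hochberg adjustment and a threshold of 0.05. Precision is limited by 3 libraries a group, and no counting intervals were computed. The fit and the motif search were tested on simulated data. The fit called 35 of 56 planted changes of 0.5 on the log2 scale and all 62 changes of 1.0, with 8 false calls. Changes were planted only in genes of higher mean. Lack of a call for a small difference therefore does not show absence of a change.

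The members and lists were chosen with earlier results of these data known. Named were all members, the called genes of the wider list, the uncalled gene of highest mean rlog value per role, and the 5 profiles nearest to the member of widest range. Cyp26c1, Aldh1a1, Aldh1a3, Crabp1 and Crabp2 and single markers were named after their values were seen. The planned protein comparison was not made. Alternatives were the filter, trend, scaling, protein-coding genes only, a replicate block and each library left out. Figures used matplotlib 3.10.9.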

Additional observations from a re-analysis of the deposited data

How the results depend on the processing

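The 13 alternatives left the calls of Stra6l, Rdh12, Nr1h3, Nrip1, Cebpe, Tgm2 and Icam1 in place. Over all genes, 2611 were called, and from 1119 (without DM replicate 2) to 3475 (without WT replicate 2) with a library left out; leaving out WT replicate 1 gave 1185 and DM replicate 3 gave 1537. The wider list's 13 calls became 8 without the filter on the mean and from 7 to 18 with a library left out, and the members' 3 calls from 2 to 4. Whether the replicate numbers pair the libraries was not settled. Deviations of same-numbered libraries correlated at 0.491, 0.116 and 0.0412 for replicates 1, 2 and 3. WT replicates 1 and 2 correlated best with the DM library of the same number, and WT replicate 3 with DM replicate 2 (0.124). With 3 libraries a group, these correlations can neither show nor exclude pairing. With the replicate block 3742 genes, 18 of the wider list and 4 members were called, with Dgat1 (-0.38, lower) and Rara (0.28) among the added calls. Quantile normalization turned the differences of Aldh1a2 (0.02), Rarg (-0.03), Cyp2s1 (0.00) and Rarb (0.01), and leaving out a library moved Rdh11 between -0.08 and 0.03 and Cyp2s1 between -0.13 and 0.00. The causes were not tested. Low genes are limited by the shrinkage of rlog values, and depth is unknown.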
